A study of Triticum turgidum subsp. durum with 32 samples.

Results

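The comparison set 8 PHYB wild-type libraries against 8 PHYC wild-type libraries of the tetraploid durum wheat Kronos, which are all of the wild-type libraries of the study and 16 of its 32 libraries. They were chosen by their labels alone, as wild type of the PHYB or of the PHYC material. Both are wild-type sister lines of phytochrome null mutants, so neither line carries a null mutation, and the remaining 16 libraries are the phyB-null and phyC-null mutants grown beside them. Each line was sampled in experiments 1 and 2 with 4 biological replicates in each experiment. RNA came from the third leaf of plants 4 weeks old, grown at 16 h light and 8 h dark, 20 °C by day and 18 °C by night, and harvested 4 h after the lights came on.

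PHYB wild type means the wild-type sister line kept from the crosses in which phyB-A and phyB-B null mutations from a TILLING (chemically mutagenized) population of Kronos were backcrossed to Kronos. PHYC wild type means the wild-type line that served as control for phyC-null, whose mutations came from earlier work. Plants of both lines were not grown in a common run. A single chamber held PHYB experiments 1 and 2 in turn, and each PHYC experiment had a chamber and lamp ballast of its own. Inherited chromosome segments, chamber and time of growth therefore differ together between the lines and cannot be told apart in any value given here.

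Phytochromes are red and far-red light receptors of plants. In red light they move to the nucleus, where they act on transcription factors of the PIF family, and through the circadian clock and photoperiod genes they set the time of flowering. Wheat breeding lines derived from one cultivar share most of their genome but can keep different segments around any mutation or residual heterozygosity, and a TILLING parent carries many background mutations. A gene that is deleted gives no mRNA, and one with a changed promoter can give more or less of it. Durum wheat has an A and a B genome with a homoeologous copy of most genes on each, named by the last letter of a gene symbol.

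The deposited table held whole-number reads for 150754 loci. Totals ran between 21643708 and 34888411 reads in PHYB wild type and between 18898968 and 25666244 reads in PHYC wild type, so the PHYB wild-type libraries were on the whole deeper (medians 30414677.5 and 24448526). All 8 photosynthesis loci used as leaf markers had reads in both lines, but the lowest averaged only 1.114 normalized counts in PHYB wild type and 0.4388 in PHYC wild type. Their summed normalized count ran from 1847.9 to 18431 in PHYB wild type and from 2224.5 to 3993.6 in PHYC wild type. Traes_6BL_B51240ACF alone reached 12610 in PHYB wild type, so the sum leans on few loci. In such bulk leaf RNA, fewer cells of a type and less RNA per cell cannot be told apart. Values below are normalized read counts, that is reads divided by a size factor of the library, given as the lowest, median and highest of 8 libraries, and fold changes are log2 of PHYB wild type over PHYC wild type with their standard error (SE).

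The lines separated fully. Libraries of a single line correlated at 0.944 to 0.974 in PHYB wild type and at 0.917 to 0.969 in PHYC wild type, against 0.901 to 0.946 between the lines (Pearson's r across loci, which are not independent replicates). The first principal component held 24.3% of the variance and put all 8 PHYB wild-type libraries on one side of all 8 PHYC wild-type libraries. The line means lay 12.1 standard deviations apart, with the standard deviation pooled within line and experiment (exact two-sided permutation test, P = 0.000155, the smallest that 12870 splits can give). The splits treat the libraries as exchangeable and leave out that those of an experiment grew together. The second component held 15.7% and did not separate them (line means 0.372 such standard deviations apart, exact permutation P = 0.592). Its highest score belonged to PHYC wild type experiment 1 replicate 2, which stood apart from every other library.

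**Figure D1:**
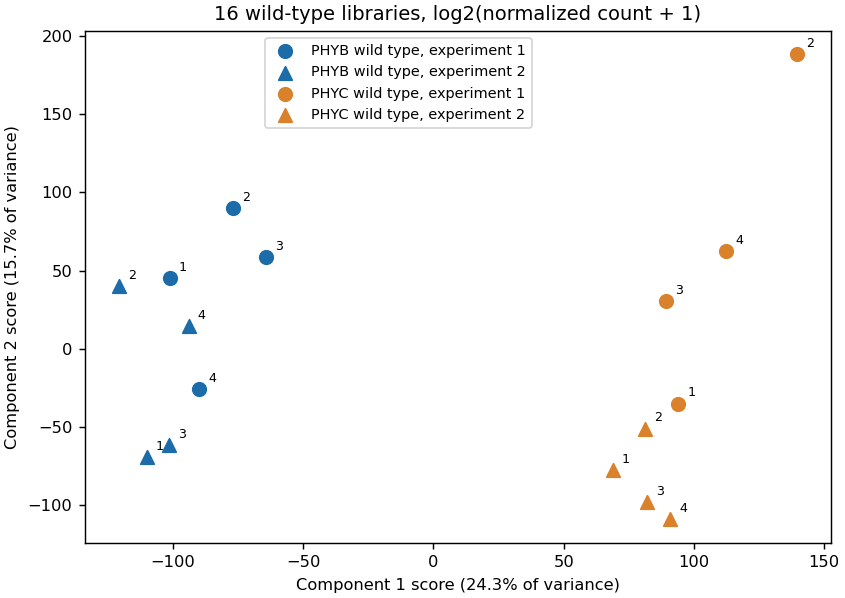
Scores of the 16 wild-type libraries on the first principal component (horizontal, 24.3% of variance) and the second (vertical, 15.7%), from log2 of normalized count plus 1, each point 1 library with its replicate number. PHYB wild type lies at the left and PHYC wild type at the right with no overlap, and PHYC wild type experiment 1 replicate 2 stands alone on the second component.

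Of 82924 loci with enough reads to test, 9842 (11.9%) differed between the wild types at an adjusted P of 0.01 or less (edgeR's quasi-likelihood test, Benjamini-Hochberg adjustment). In PHYB wild type 4593 (5.54%) were higher and 5249 (6.33%) lower. Most of these differences were small: 5318 of the called loci (54%) differed less than 2-fold, and the median absolute log2 fold change was 0.94 among called loci and 0.38 among all loci tested. At least a 4-fold difference was found at 1503 loci (1.81%), 717 higher and 786 lower in PHYB wild type. Scaled by library totals in place of size factors, 72.1% of 11327 called loci were higher in PHYB wild type, against 46.7% here, and the median over all loci moved to 0.18. At 2774 called loci (3.35%) every PHYB wild-type library lay on one side of every PHYC wild-type library, 1138 higher (1.37%) and 1636 lower (1.97%).

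Within a line fewer loci differed between experiments, in tests of 4 against 4 libraries and not 8 against 8. Experiment 2 differed from experiment 1 at 376 loci (0.453%) in PHYB wild type and at 245 loci (0.295%) in PHYC wild type, of which 216 also differed between the lines. These counts were not stable. DESeq2 called 1930 loci in PHYB wild type and 3136 in PHYC wild type, and with single libraries left out the counts ran from 88 (without PHYB wild type experiment 1 replicate 2) to 1032 (without PHYC wild type experiment 1 replicate 2) in PHYB wild type, and from 33 (without PHYC wild type experiment 2 replicate 3) to 1368 (without PHYC wild type experiment 1 replicate 1) in PHYC wild type. Single experiments of the lines, likewise 4 against 4, gave 1574 to 4239 calls between the lines. The median absolute log2 fold change was 0.38 between the lines, 0.33 between the PHYB experiments and 0.40 between the PHYC experiments. These sizes cannot be ranked, since noise alone gives larger fold changes with 4 against 4 libraries than with 8 against 8. Treating the experiments as the units (4 sums of reads, 2 against 2) left 115 loci called between the lines. P-values of the main fit measure the spread among replicates within a line and experiment, and leave out the spread between experiments.

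Positions are those of the IWGSC draft assembly 2.2 of the bread wheat Chinese Spring, so a segment of Kronos that is arranged differently appears where its sequence was placed there. Called loci lay on all 14 chromosomes at much the same rate, between 10.4% of tested loci on 5A and 12.9% on 1A, and 11.9% on each of the A and B genomes. The direction was not spread evenly. On 6B 395 called loci were higher and 184 lower in PHYB wild type, on 7B 397 and 210, and on 5A 328 and 212. The reverse held on 5B with 306 higher and 589 lower, on 6A with 244 and 403, and on 3B, where 3.8% of tested loci were higher and 7.85% lower, against 5.54% and 6.33% over all chromosomes. With library totals, under which most called loci of the genome were higher (72.1%), 60.8% on 5B, 65% on 6A and 57% on 3B were higher too, still below that share, while 6B had 86.6% and 7B 84.9%.

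The imbalance also showed in medians over all tested loci, called loci included. The median log2 fold change over all tested loci was 0.13 on 6B and 0.13 on 7B, 0.089 on 5A and 0.083 on 3A, against -0.092 on 3B, -0.047 on 5B and -0.047 on 6A, while the median over the whole genome was 0.016. It was spread along the chromosome: among bins of 10 Mb with at least 20 tested loci, the median lay above 0 in 26 of 26 bins on 7B, 20 of 21 on 6B, 18 of 19 on 3A, 18 of 19 on 7A and 14 of 15 on 5A. On 3B it lay below 0 in 64 of 78 bins and on 6A in 17 of 21. These chromosome medians were computed after the counts by chromosome had been seen.

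To set the chromosomes against the spread among libraries, the level of a chromosome was taken in each library as the median over its loci of the log2 deviation from the mean of the libraries, less the same median over all loci of that library, over 43932 loci with a mean count of at least 20. On 6B the level ran from 0.026 to 0.070 (median 0.057) in PHYB wild type and from -0.069 to -0.013 (median -0.033) in PHYC wild type, and the groups did not overlap. On 7B it ran from 0.024 to 0.080 in PHYB wild type and from -0.065 to 0.0033 in PHYC wild type, again without overlap. The level of 4A was lower in every PHYB wild-type library, and on the 11 remaining chromosomes the libraries overlapped. Mean differences ran from -0.089 on 3B to 0.092 on 6B, with adjusted P between 0.000725 and 0.0241 over the 14 chromosomes (exact two-sided permutation test of 8 against 8 libraries, Benjamini-Hochberg adjustment over 14). These P-values too treat libraries as exchangeable, although those of an experiment grew together.

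A single library set part of that overlap. PHYC wild type experiment 1 replicate 2 had the PHYC wild type's highest level on 5A (0.0998) and 3A (0.0607) and its lowest on 3B (-0.046), opposite to the other PHYC wild-type libraries. Without it 8 chromosomes did not overlap, of which 5A, 6B, 7A and 7B were higher and 3B, 4A, 5B and 6A lower in PHYB wild type. The null mutants, whose libraries had no part in the choice of chromosomes, showed the same sign on 14 of 14 chromosomes for phyB-null over phyC-null, with medians of 0.13 on 6B, 0.12 on 7B, 0.11 on 5A, -0.081 on 3B and -0.055 on 5B. Their libraries did not overlap on 13 of the chromosomes, 1A being the exception (exact permutation P = 0.000155 for each of the 13 before adjustment, the smallest possible). The medians of experiment 2 over experiment 1 within a line stayed between -0.030 and 0.042. Base composition, gene length and library preparation were not tested as sources.

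**Figure D2:**
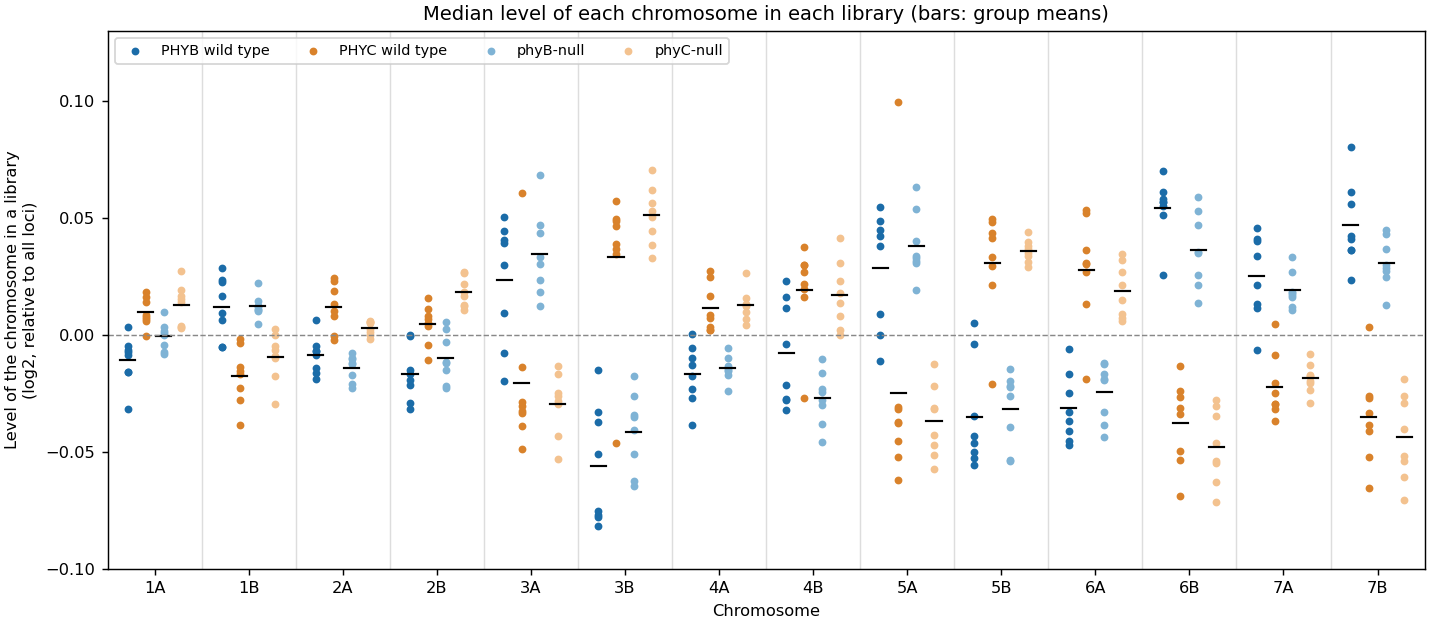
Level of each chromosome in each of the 32 libraries, as the median log2 deviation of its loci from the mean of the libraries, less that over all loci, with PHYB material left of PHYC material for wild types and for null mutants. Points are libraries and bars group means. 6B and 7B are higher and 3B and 5B lower in PHYB wild type, and the null mutants show the same sign on all 14 chromosomes.

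Loci with large differences were unevenly placed. Among the 397 bins of 10 Mb, a median of 11.7% of tested loci were called and 1.28% were called with at least a 4-fold difference. The bin with the highest share of 4-fold loci was 1B from 250 to 260 Mb, where 33 of 148 tested loci were called (22.3%) and 14 were at least 4-fold apart (9.46%). The first 10 Mb of 2A had 91 of 467 loci called (19.5%), 35 of them at least 4-fold (7.49%), of which 23 were higher and 12 lower in PHYB wild type. On 3B the bin from 730 to 740 Mb had 18 of 162 called (11.1%, near the share over the genome) and 10 at least 4-fold (6.17%), and that from 130 to 140 Mb had 11 of 65 called (16.9%) and 4 at least 4-fold (6.15%). When all called loci were ranked instead of those 4-fold apart, the leading bin was 3B from 190 to 200 Mb with 13 of 51 loci (25.5%).

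**Figure D3:**
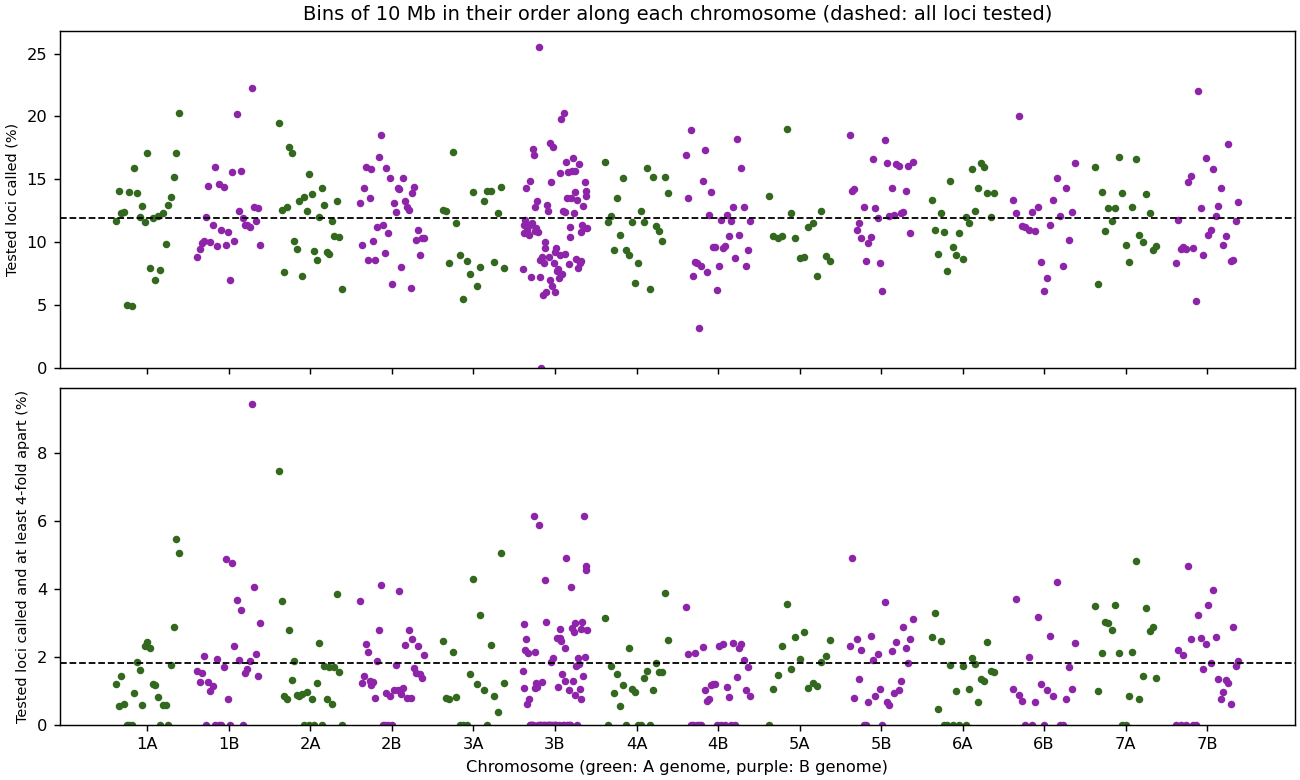
Percent of tested loci called between the wild types (top) and called with at least a 4-fold difference (bottom), each point a bin of 10 Mb in its order along each chromosome, dashed lines the shares over all loci tested (11.9% and 1.81%). The bins 1B 250 to 260 Mb (9.46%) and 2A 0 to 10 Mb (7.49%) stand highest in the bottom panel against a median of 1.28%.

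The loci of largest change in these bins went both ways in the 1B bin, and carry no annotation in the sources used. The gene model Traes_1BL_B1C10EA93 (1B, 253840627 to 253848878) had 0, 2.85 and 4.797 reads in PHYB wild type and 14.6, 2970 and 11440 in PHYC wild type, a log2 fold change of -9.92 ± 1.41 (adjusted P = 8.88e-05). All PHYC wild-type libraries were higher, but they fell into 3 with 14.6 to 21.1 reads and 5 with 2856 to 11440, so the gene was not uniformly expressed there either. In the same bin, several Mb away, td-k45_contig_46252 (258339801 to 258344887) and td-k35_contig_5600 (258345092 to 258347074) were high in PHYB wild type, with log2 fold changes of 6.96 ± 0.24 and 6.62 ± 0.34. The first had 236, 280 and 325 reads in PHYB wild type and 0, 1.83 and 5.67 in PHYC wild type. Both transcripts were silent or nearly so in PHYC wild type and steady in PHYB wild type. They were not silent in phyC-null, where they averaged 188 and 96.5 reads, against 296 and 135 in phyB-null.

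At the start of 2A, isotig20431 (5893570 to 5900137) had 127, 261 and 524 reads in PHYB wild type against 1.42, 5.83 and 14.0 in PHYC wild type (log2 fold change 5.42 ± 0.39). KukriC6603_6 (6092292 to 6095328) was higher as well, at 3.48 ± 0.31. Opposite in direction, td-k51_contig_2773 (4234057 to 4235953) had 0, 2.91 and 10.2 reads in PHYB wild type and 40.96, 70.9 and 118 in PHYC wild type (-4.27 ± 0.36). None of the 3 overlapped between the lines, so within 2 Mb of this arm the direction changed. An abundant locus, Traes_2AS_A0A7891B9 (7411639 to 7415215), had 1152, 1292 and 1655 reads in PHYB wild type and 10710, 11100 and 13900 in PHYC wild type, -3.11 ± 0.09, adjusted P = 2.1e-13.

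Most called loci of both 3B bins were lower in PHYB wild type, 14 against 4 higher in the distal bin and 9 against 2 in the other, and of those at least 4-fold apart 7 against 3 and 3 against 1. In the distal bin td-k31_contig_79452 (739701162 to 739702230) had 4.41, 11.3 and 22.8 reads in PHYB wild type and 55.8, 67.9 and 99.1 in PHYC wild type (-2.73 ± 0.24). Neighbouring TRAES3BF015700050CFD (739693017 to 739693784) was lower at -1.80 ± 0.29 with overlapping libraries, and td-k41_contig_18773 (737040947 to 737041633) at -1.71 ± 0.19 without overlap. In the bin at 130 Mb, td-k45_contig_10938 (139044648 to 139050984) was lower at -2.33 ± 0.29 and td-k31_contig_5533 (139343391 to 139349598) at -1.499 ± 0.19, both without overlap. The third, td-k63_contig_33144_td-k41_contig_17316 (138452862 to 138458917), is annotated as a boron transporter, a membrane protein that loads boron into the xylem. It had 435, 855 and 1823 reads in PHYB wild type and 1550, 1571 and 1811 in PHYC wild type (-0.90 ± 0.10), and the groups overlapped. Its call ended with line alone in the fit and when PHYB experiment 1 was set against either PHYC experiment alone. Over all alternative settings its log2 fold change ran from -1.68 to -0.11.

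A smaller set behaved as on or off. At 99 loci (0.119%) the mean of one line was at most 5% of the other, whose mean was at least 20, without overlap: 39 were near zero in PHYC wild type and 60 in PHYB wild type. They lay on all 14 chromosomes, and of the 65 with a position only 11 fell in 5 groups within 1 Mb of each other, each group running in one direction. Such groups were found at 1B 258339801 to 258347074, 3A 178109379 to 179065348, 3B 261995641 to 262058281, 3B 597646476 to 597649704 and 7A 160891082 to 161091702.

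What these loci are differed by direction. Of the 39 near zero in PHYC wild type, 69.2% were contigs with the prefix td-k and 17.9% gene models, against 33.2% and 55.5% of all loci tested. Of the 60 near zero in PHYB wild type, 61.7% were gene models of the assembly and 28.3% td-k contigs. No test was made of these shares. Within the line that expressed them, 9 loci were split among libraries, 3 near zero in PHYC wild type and 6 near zero in PHYB wild type, as with Traes_1BL_B1C10EA93.

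These loci were also read in the null mutants, where near zero meant at most 5% of the highest of the 4 genotype means. At 54 loci only the mutant of the low line was near zero too, 14 in the PHYC material and 40 in the PHYB material. In the expressing line of these, mutant and wild type were within 4-fold of each other at 47, the mutant was more than 4-fold lower at 5 and more than 4-fold higher at 2. For example, contig11915 averaged 6.22 reads in phyC-null and 117.5 in PHYC wild type, and td-k25_contig_26905 averaged 1325 in phyB-null and 24.9 in PHYB wild type. At 30 loci neither mutant was near zero, 22 of them near zero in PHYC wild type and 8 in PHYB wild type. Among them were all loci of the 1B and 7A groups given above. At 11 loci only the mutant of the other line was near zero, and at 4 both mutants were. The limit of 5% placed some loci narrowly: td-k31_contig_60421, among the 11, averaged 5.22 reads in phyB-null and 3.50 in phyC-null, against 2.39 in PHYB wild type and 97.3 in PHYC wild type. The mutants also differ from their wild types by the phytochrome mutations.

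**Figure D4:**
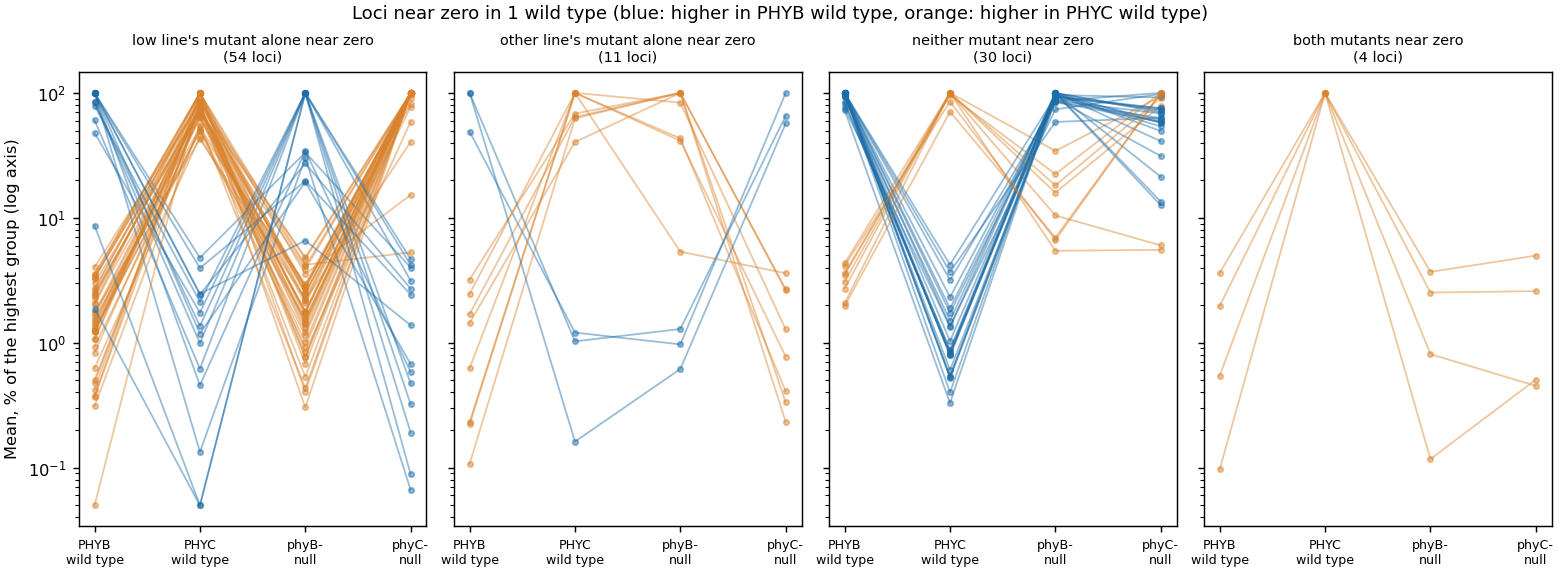
Mean normalized count in PHYB wild type, PHYC wild type, phyB-null and phyC-null for the 99 loci near zero in one wild type, as a percent of the highest of the 4 means on a log scale. Each line is a locus, blue where PHYB wild type and orange where PHYC wild type was higher, and values under 0.05% are drawn at 0.05%. At 54 loci the mutant of the low line alone is near zero as well, at 30 neither mutant is, at 11 the mutant of the other line alone, and at 4 both.

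Among called loci without overlap and with a mean of at least 50 in the higher line, the highest fold changes were those of unannotated contigs. An annotated locus outside this set reached a log2 fold change of 8.81. The transcript td-k41_contig_82813 (3B, 597646476 to 597648224) had 198.04, 310 and 390 reads in PHYB wild type and 0, 0 and 1.22 in PHYC wild type. Summed over 8 libraries it had 2860 against 3 reads, a 703-fold difference (95% counting interval 240 to 3410). Its neighbour td-k55_contig_84765 (597648699 to 597649704) had 247, 394 and 498 reads in PHYB wild type and 0, 1.21 and 4.99 in PHYC wild type (log2 fold change 7.62 ± 0.29). In the mutants the pair was present in 7 of 8 phyB-null libraries at 48.7 or more and 75.0 or more reads, while phyC-null had at most 1.82 and 5.58 reads, so the pair followed the PHYB material apart from 1 phyB-null library with 0.87 and 2.61 reads. Counting intervals and floors cover counting error only.

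A transcript on 7A and another on 1A behaved differently from that pair in the mutants, and from each other. The contig td-k41_contig_26147 (7A, 15611505 to 15612266) had 73.5, 89.7 and 148 reads in PHYB wild type and 0, 0 and 1.22 in PHYC wild type (856 against 1 reads, 631-fold, interval 113 to 25000). The mutants ran the other way, with a log2 fold change of -6.33 for phyB-null over phyC-null. The contig td-k35_contig_33480 on a 1A scaffold had 721 against 2 reads (266-fold, interval 73.3 to 2200) and 61.1, 75.7 and 96.9 reads in PHYB wild type against 0, 0 and 1.42 in PHYC wild type. It was not reversed in the mutants, with a mean of 87.5 reads in phyB-null and 35.9 in phyC-null, where some libraries of experiment 2 had 0.

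Others of this group were td-k55_contig_84000 on 7B (8.35 ± 0.68, 77.6 to 1202 reads in PHYB wild type against 0 to 2.84), td-k25_contig_15979 on 7A (7.39 ± 0.43), td-k35_contig_69430 on 1B (7.38 ± 1.16) and contig13820 on a 6B scaffold (7.17 ± 0.34). All 8 highest loci were without overlap between the lines, which was a condition of their choice. At td-k35_contig_69430 PHYB wild type ran from 2.47 to 346 reads with 3 libraries under 7.

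At the other end Traes_2AS_315383305 and Traes_2AS_7E47A2541, both on 2A scaffolds, were nearly silent in PHYB wild type. The first had 0, 0.949 and 3.42 reads in PHYB wild type and 390, 563 and 795 in PHYC wild type (-8.77 ± 0.23, adjusted P = 3.21e-14). The second had 0, 0.394 and 2.28 against 153, 257 and 405 (-8.82 ± 0.34). Both were again reversed in the mutants, with 110 to 442 reads of Traes_2AS_315383305 in phyB-null and 0 to 14.6 in phyC-null. On 2B td-k61_contig_53121 had 1 read over all PHYB wild-type libraries and 394 over PHYC wild type, a 534-fold difference (interval 95.4 to 21200).

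The remaining lowest loci were Traes_4BL_47A020E26 (4B, 237331300 to 237333237, -8.06 ± 0.50), Traes_2AL_268718845 (2A, 200883372 to 200885038, -7.77 ± 0.59), Traes_1AL_C40703A29 (1A, 93856960 to 93858194, -7.71 ± 0.36) and Traes_6BL_691123952 (6B, 141839832 to 141841445, -7.18 ± 0.39). All were without overlap, again by the rule of choice, with PHYB wild type at most 4.73 reads in each. Several fitted fold changes depend on 1 library that held the few reads of the low line: without PHYC wild type experiment 1 replicate 1, td-k41_contig_82813 became 10.06 and td-k41_contig_26147 9.60. Without PHYC wild type experiment 1 replicate 3, td-k35_contig_33480 became 8.43 and td-k25_contig_15979 8.27, and they became 8.45 without experiment 2 replicate 4 and 8.91 without experiment 2 replicate 1 of that line. Without PHYB wild type experiment 1 replicate 3, td-k61_contig_53121 became -8.84 and Traes_6BL_691123952 -7.97, without its experiment 1 replicate 1 Traes_2AL_268718845 became -8.58, and without its experiment 2 replicate 1 Traes_2AS_7E47A2541 became -9.48. Without PHYC wild type experiment 1 replicate 2, Traes_1BL_B1C10EA93 became -9.01. Such values are of counts near 0 and are no bound.

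Loci chosen after their values were seen add cases with an annotation. A chaperonin, a CPN60-like mitochondrial protein (Traes_6AL_3D0205BDD, 6A, 38783698 to 38788859), had 368, 405 and 640 reads in PHYB wild type and 2.18, 10.7 and 24.3 in PHYC wild type (5.46 ± 0.24). The blue copper protein td-k51_contig_63989 on 1A had 2.28, 47.5 and 74.7 reads in PHYB wild type and 0, 1.17 and 2.18 in PHYC wild type (5.18 ± 0.82). In the mutants the chaperonin averaged 33.8 reads in phyB-null and 7.07 in phyC-null, and the blue copper protein 0.891 in phyB-null and 91.8 in phyC-null.

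Among unannotated loci chosen likewise, Traes_2BL_6E8246DF3 had 707, 925 and 1113 reads in PHYB wild type and 3.99, 13.1 and 20.3 in PHYC wild type (6.27 ± 0.16). In phyC-null it averaged 986 reads, so only PHYC wild type was low. The locus Traes_2AL_322164EB3 had 1.14, 5.85 and 13.6 reads in PHYB wild type and 392, 843 and 1599 in PHYC wild type (-7.12 ± 0.40), and stayed low in phyB-null (28.2) and high in phyC-null (1368). The locus Traes_7AS_988EC03B9 (7A, 28452027 to 28457595) had 4.24, 6.73 and 9.26 reads in PHYB wild type and 227, 266 and 525 in PHYC wild type (-5.61 ± 0.26), with 9.87 in phyB-null and 10.1 in phyC-null. Each of the 3 was without overlap between the wild types.

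Among abundant called loci without overlap (mean of at least 2000) differences were smaller upward than downward. The cysteine-rich receptor-like kinase Traes_4AL_CD13F08C8 had 2108, 3363 and 6302 reads in PHYB wild type and 746, 1449 and 1970 in PHYC wild type (1.35 ± 0.17). The lectin receptor kinase Traes_2BS_B98E8975C, of a family of cell-surface proteins, was higher by 1.29 ± 0.14. Both kinases were higher in every PHYB wild-type library. TRAES3BF278900010CFD (1.12 ± 0.18) and KukriC174_30 (1.04 ± 0.22), without annotation, completed the 4 highest. Downward, besides Traes_2AS_A0A7891B9, Traes_2AS_67B594916 had 78.8, 249 and 785 reads in PHYB wild type against 3035, 4647 and 7692 in PHYC wild type (-4.06 ± 0.27), and Traes_1AS_C7E294E15 (-1.81 ± 0.38) and Traes_1AL_9D3A2CA99 (-1.62 ± 0.18) followed. None of these 8 overlapped between the lines, since only called loci without overlap were eligible.

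The genes the study listed for phytochrome signalling were considered next, by role, with PHYA-A, PHYB-A and PPD-A1 added. Of these 92 genes 88 had enough reads, and 23 (26.1%) were called, 15 higher and 8 lower in PHYB wild type (8 and 6 with line alone in the fit). Apart from the added genes, they were listed because they differed between null mutants and wild types in these same libraries. The share is therefore not independent evidence and is not to be read against the 11.9% of all loci. The median log2 fold change of the genes tested was -0.0095 against 0.016 over all loci.

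**Figure D5:**
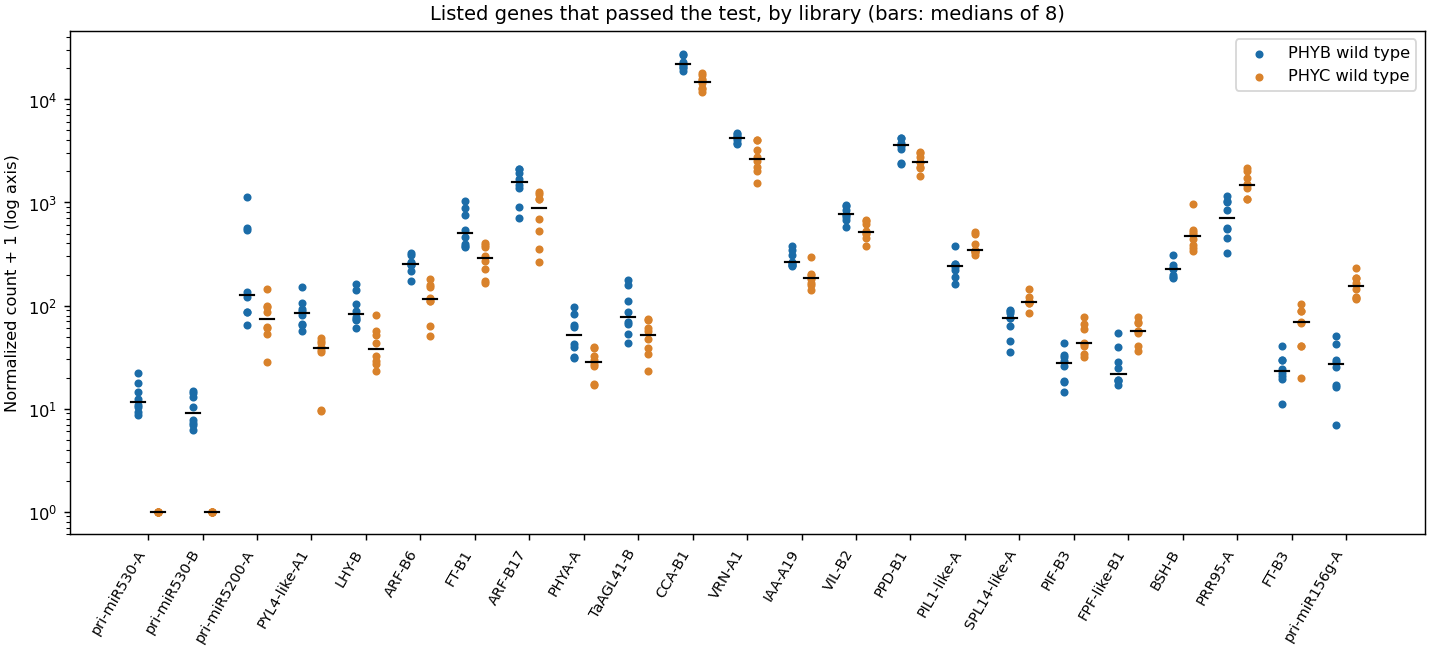
Normalized count plus 1 of the 23 listed genes called between the wild types, on a log scale, PHYB wild type left of PHYC wild type, each point 1 library and bars medians of 8. The libraries do not overlap at CCA-B1, PYL4-like-A1, BSH-B, pri-miR156g-A, pri-miR530-A and pri-miR530-B, the last 2 without a read in PHYC wild type.

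Of the phytochrome genes PHYB-A and PHYA-A, PHYA-A was higher in PHYB wild type. PHYB-A, the gene of the phyB apoprotein, had a median of 337 reads in PHYB wild type and 326 in PHYC wild type (0.071, adjusted P = 0.638 by edgeR). PHYA-A, encoding the far-red receptor phytochrome A, had 29.7, 51.04 and 95.7 reads in PHYB wild type and 16.0, 27.2 and 38.6 in PHYC wild type (0.93 ± 0.18, adjusted P = 0.0012). The libraries overlapped, and the call ended with line alone in the fit and when PHYB experiment 1 was set against either PHYC experiment alone.

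Of 4 clock genes, CCA-B1 and LHY-B were higher and PRR95-A was lower. CCA-B1, a MYB repressor that peaks near dawn, had 19010, 21950 and 27550 reads in PHYB wild type and 11740, 14910 and 18270 in PHYC wild type (0.62 ± 0.10, adjusted P = 0.00036). Every PHYB wild-type library lay above every PHYC wild-type library. LHY-B, a related MYB factor, had 59.6, 81.5 and 161 reads in PHYB wild type and 21.9, 36.6 and 79.4 in PHYC wild type (1.26 ± 0.17), with overlap. PRR95-A, a pseudo-response regulator of the clock, had 322, 707 and 1165 reads in PHYB wild type and 1078, 1492 and 2147 in PHYC wild type (-1.16 ± 0.15, adjusted P = 3.02e-05). GI-B, a clock component that also acts in photoperiodic flowering, was not called (-0.33, adjusted P = 0.0804). The hour of harvest given is the same for all plants.

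Of 16 flowering regulators, 5 were higher and none lower in PHYB wild type. FT-B1, the florigen of wheat, had 370, 501 and 1036 reads in PHYB wild type and 165, 287 and 400 in PHYC wild type (1.07 ± 0.25, adjusted P = 0.00478). VRN-A1, a MADS-box gene that promotes the change of the apex to flowering, had 3718, 4262 and 4759 reads in PHYB wild type and 1529, 2666 and 4065 in PHYC wild type (0.62 ± 0.14, adjusted P = 0.00394). Both overlapped, although the median of each was higher in PHYB wild type. PPD-B1, the photoperiod pseudo-response regulator, was higher by 0.46 ± 0.11 (adjusted P = 0.0045), VIL-B2, a PHD finger protein of the vernalization family, by 0.53 ± 0.13 (0.00617) and TaAGL41-B, a MADS-box gene, by 0.90 ± 0.20 (0.00406).

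These calls rested on single libraries. Leaving out PHYB wild type experiment 1 replicate 2, experiment 2 replicate 2 or 4, or PHYC wild type experiment 2 replicate 1, 2 or 3 ended the call of FT-B1. That of PPD-B1 ended without PHYB wild type experiment 1 replicate 1 or experiment 2 replicate 1, or PHYC wild type experiment 1 replicate 4 or experiment 2 replicate 2 or 3. That of VIL-B2 ended without PHYB wild type experiment 1 replicate 1 or 4 or experiment 2 replicate 1 or 3, or PHYC wild type replicate 3 or 4 of either experiment. That of TaAGL41-B ended without PHYB wild type experiment 1 replicate 1 or experiment 2 replicate 2, and that of VRN-A1 without PHYC wild type experiment 2 replicate 3. All kept their direction. In a fit with line alone, without experiment means, 2 of the 16 passed. The other 11 ran from -0.74 for the locus matched to GATA-B1 to 0.98 for FUL-A2, whose adjusted P was 0.0497. The study printed higher counts for GATA-A7 than for GATA-B1. The loci matched here by transcript name ran the other way (means 3.28 and 145.9 in PHYB wild type), so both identities are uncertain. FT-A1, the copy on the A genome, stood at 0.26 (adjusted P = 0.621) and PPD-A1 at 0.66 (0.0511).

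Of 5 tested FT-like genes of the PEBP family, FT-B3 was lower in PHYB wild type, with 10.2, 22.2 and 39.1 reads there and 18.6, 67.6 and 103 in PHYC wild type (-1.42 ± 0.31, adjusted P = 0.00286). FPF-like-B1, a flowering promoting factor, was the only one called of 5 and had 16.1, 20.7 and 53.4 reads in PHYB wild type and 34.8, 56.01 and 76.2 in PHYC wild type (-1.10 ± 0.23, adjusted P = 0.00227). Both genes overlapped between the lines, and the call of FT-B3 ended with library totals in place of size factors. FPF-like-A4 was at 0.87 and FPF-like-B2 at -0.62, neither past the threshold (adjusted P = 0.0278 and 0.0392).

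Of 10 shade-response transcription factors, 3 were lower in PHYB wild type. PIF-B3, of the family that phytochromes remove in the light, had 13.6, 26.4 and 42.5 reads in PHYB wild type and 30.4, 41.95 and 76.2 in PHYC wild type (-0.88 ± 0.21, adjusted P = 0.00575). PIL1-like-A stood at -0.67 ± 0.14 and SPL14-like-A, a squamosa-promoter binding protein, at -0.71 ± 0.15, and all 3 overlapped. The call of PIF-B3 ended without PHYB wild type replicate 2 of either experiment, experiment 1 replicate 1 or experiment 2 replicate 4, or PHYC wild type replicate 4 of either experiment or experiment 2 replicate 2 or 3. With library totals in place of size factors 0 of the 10 genes were called, and with line alone 1. The homeobox gene ATHB2-A, known as a quick reporter of shade in Arabidopsis, had a median of 16.0 reads in PHYB wild type and 31.2 in PHYC wild type and was not called (-0.81, adjusted P = 0.0736).

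Of 13 auxin genes, 3 were higher in PHYB wild type. ARF-B6, an auxin response factor, had 171, 254 and 325 reads in PHYB wild type and 49.7, 114 and 180 in PHYC wild type (1.18 ± 0.16, adjusted P = 5.44e-05). ARF-B17 was higher by 1.01 ± 0.18 and IAA-A19, an auxin-induced repressor, by 0.58 ± 0.13. None was without overlap, and with line alone in the fit 1 of the 3 calls held. The tryptophan aminotransferases TAR-A2 and TAR-B2 of auxin synthesis stood at -0.75 and -0.53 and did not pass.

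Other hormone and growth genes gave few calls. PYL4-like-A1, an abscisic acid receptor, had 56.2, 84.4 and 152 reads in PHYB wild type and 8.51, 37.4 and 47.4 in PHYC wild type (1.44 ± 0.27, adjusted P = 0.0011), without overlap, whereas its relative PYL4-like-B1 stood at 1.05 (adjusted P = 0.0102). BSH-B, of the growth list, had 185, 228 and 306 reads in PHYB wild type and 336, 467 and 966 in PHYC wild type (-1.16 ± 0.17, adjusted P = 0.000123), also without overlap. Of 7 gibberellin oxidases 0 passed edgeR's test, 3 had an unadjusted P under 0.05 and DESeq2 called 2 lower, and of 5 cold-response genes 0 passed, 4 had an unadjusted P under 0.05 and DESeq2 called 1 lower. GA20ox-B4 was at -2.35 with medians of 2.85 reads in PHYB wild type and 8.60 in PHYC wild type.

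The microRNA precursors held the largest differences of the lists. The precursor pri-miR156g-A, of the miR156 family that represses SPL genes in young plants, had 5.95, 26.0 and 49.6 reads in PHYB wild type and 114, 153.8 and 230 in PHYC wild type (-2.69 ± 0.21, adjusted P = 1.39e-07), without overlap. The precursor pri-miR5200-A, whose product targets FT in grasses, was higher by 1.56 ± 0.35, with 63.6, 127 and 1120 reads in PHYB wild type and 27.2, 73.2 and 145 in PHYC wild type. Its libraries overlapped, and the call ended with line alone in the fit and when PHYB experiment 2 was set against either PHYC experiment alone. Its B-genome copy stood at -0.52 and was not called. TZP-A and TZP-B, zinc-finger genes of light signalling, were at -0.11 and 0.20.

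Reads of pri-miR530 were found in PHYB wild type only. The A copy had 110 reads over the PHYB wild-type libraries and 0 over the PHYC wild-type libraries, at least 27-fold higher against a floor of 3 reads for the group, and the B copy 82 and 0, at least 20.2-fold higher. The counts were low, with medians of 10.6 and 8.07 normalized reads in PHYB wild type. In phyB-null, grown beside PHYB wild type, the precursors averaged 6476 and 2982 normalized reads, and PHYB wild type had 0.209% and 0.337% of that. Among 6 loci chosen for very high counts in phyB-null and few reads in PHYB wild type, this share was between 0.143% and 0.976%. A small share follows from that choice. The contig td-k25_contig_26905, not among the 6, averaged 1325 reads in phyB-null and 24.9 in PHYB wild type. Reads from phyB-null libraries assigned to PHYB wild-type libraries were not tested.

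Groups defined by words in the annotation of the study's own lists of changed loci were described against 24.9% called among all 2055 annotated loci, since those loci were selected in libraries that include these. Receptor-like kinases, cell-surface proteins that perceive peptides, pathogens and hormones, were called at 25.8% of those tested, 32 higher (24.2%) and 2 lower (1.52%), with a median log2 fold change of 0.54 against 0.0012 over all annotated loci. With line alone in the fit the counts were 13 and 1. The LRR kinase Traes_7AL_E5C2A90B0 had 103, 344 and 723 reads in PHYB wild type and 13.1, 34.6 and 255 in PHYC wild type (2.53 ± 0.49), and td-k31_contig_27760 had 4.32, 10.95 and 14.5 against 17.4, 53.6 and 114 (-2.33 ± 0.33). The lower one did not overlap, the higher one did. Both were chosen after their values were seen.

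Aquaporins, the water and solute channels of membranes, were lower in 5 of 12 and higher in 0, beside 12.6% lower and 12.3% higher among all annotated loci. With line alone 4 were lower. The largest were NIP5-1-like channels, of a family that carries boron in Arabidopsis: Traes_1BL_CC64CA41E had 32.2, 78.4 and 161 reads in PHYB wild type and 125, 320 and 479 in PHYC wild type (-1.97 ± 0.23). Traes_1AL_0912DED70 stood at -1.63 ± 0.30 and the plasma-membrane aquaporin Traes_2AL_66220D19D at -0.78 ± 0.10. The last did not overlap, whereas both NIP5-1-like genes did.

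Histones were lower in 5 of 7 (71.4%, beside 12.6% of all annotated loci). Traes_6AS_8E3BD132E (6A, 7283265 to 7285288) had 2.202, 6.47 and 11.9 reads in PHYB wild type and 33.9, 39.8 and 49.7 in PHYC wild type (-2.62 ± 0.20), and the histone H4 gene Traes_5BL_3AC8B8F76 had 28.6, 39.8 and 51.7 against 60.8, 91.04 and 123 (-1.15 ± 0.15), both without overlap. Of 42 ribosomal protein loci 6 were lower and 0 higher, 5 of them of the chloroplast ribosome and 1 a retrovirus-related locus matched by its second annotation. Traes_5BL_AA5911949, of the large chloroplast subunit, stood at -0.74 ± 0.13. With line alone 3 histones and 2 ribosomal protein loci passed. Disease resistance proteins showed 8 higher and 8 lower of 54 (3 and 6 with line alone), cytochrome P450 enzymes 2 and 2 of 26 (1 and 1), heat shock proteins 2 and 0 of 12 and peroxidases 2 and 0 of 13. The heat shock protein STI-like Traes_4BS_5C6D94EBF (4B, 7207550 to 7218902) was higher by 1.99 ± 0.18 without overlap.

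Of the 8 photosynthesis loci 3 were higher and 2 lower. The 3 higher ones share one annotation, a small subunit of photosystem II. Traes_6BL_B51240ACF, annotated as the photosystem II 10 kDa protein, had 243, 2538 and 12610 reads in PHYB wild type and 8.71, 54.6 and 781 in PHYC wild type (3.999 ± 0.55, adjusted P = 6.59e-05). Traes_6AL_48202E971 was higher by 4.70 ± 0.66 and Traes_5AS_F4FD056C2 by 5.15 ± 0.84. At Traes_6BL_B51240ACF experiment 2 of PHYB wild type had 4607 to 12611 reads and experiment 1 243 to 469. In all 3 the libraries overlapped, and phyB-null had far more, averaging 78450, 36170 and 535 reads against 563, 419 and 3.89 in phyC-null. Leaving out PHYC wild type experiment 2 replicate 1, the highest library of that line at all 3, moved these to 4.88, 5.48 and 6.68, and leaving out PHYB wild type experiment 2 replicate 4 moved Traes_6AL_48202E971 to 3.86. The photosystem II W protein Traes_1BL_3727B0AB8 (1B, 251912801 to 251913974) was lower at -1.44 ± 0.16, with 371, 608 and 934 reads in PHYB wild type and 996, 1564 and 2341 in PHYC wild type, without overlap.

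The same contrast in the null mutants, phyB-null over phyC-null, called 27132 of 87012 loci (31.2%), a comparison that also holds the difference between both mutations. Of the 9771 loci called between the wild types and tested in both, 64% were called in the same direction in the mutants, 3.39% in the opposite direction and 32.6% not called. Over all 81045 loci tested in both these shares were 27.3%, 5.78% and 67%. Among the 2762 called without overlap the shares were 72.6%, 2.86% and 24.6%. Of 98 near-zero loci tested in both, 74 were called in the same direction, 11 in the opposite and 13 not. Wild types and mutants of a line were grown together, so chamber and line are held in common by both contrasts.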

How the data were processed

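The authors aligned RNA-seq reads with GSNAPl to the IWGSC draft assembly 2.2 and, per the labels, counted them with HTSeq. The deposited table holds raw counts per locus, with no normalization, and all its columns were mapped to libraries by name. Overlapping loci, and homoeologues that share sequence, may exchange reads, and strand was not given in the sources used here. No value of the authors' own comparisons was used. Members, lists and named loci were chosen with earlier results of these data known.

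A locus entered the fit where 2 or more of the 16 libraries held 3 or more reads. Counts were fitted with edgeR 4.0.16 (quasi-likelihood, R 4.3.3), with DESeq-type size factors, a mean for each line and experiment, and the contrast of line means, called at an adjusted P of 0.01 (Benjamini-Hochberg over all loci tested). Alternatives used DESeq2 1.42.0 and other scalings, filters and subsets. The null mutants were fitted alike. On simulated counts for 79967 loci the fit recovered 169 of 200 changed loci (69 of 100 changed 2-fold, 100 of 100 changed 4-fold) with 3 false calls. The simulation gave all loci a common dispersion and no difference between experiments, and changed only loci with a mean of at least 20. Its recovery and false calls are therefore not error rates of the real data. Principal components used log2 of normalized count plus 1.

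Same-numbered replicates of both lines were not paired: the correlations of their deviations ran from 0.00693 to 0.179, and 2 of 8 exceeded 0.1. No libraries were identical. Loci were named by rule: listed genes that passed, and the 8 highest and 8 lowest fold changes without overlap (mean of at least 50 in the higher line). To these were added 3 in each of 4 leading bins, and the 4 highest and 4 lowest without overlap of mean at least 2000. Loci named among the annotation groups and as annotated or unannotated examples were chosen after their values were seen. Gene lists and annotations are those of the study, selected on these samples, apart from PHYA-A, PHYB-A and PPD-A1. Loci were matched to listed genes by transcript name and genome. For PROG-A1 and PROG-B1, as for the GATA genes, the order of counts was the reverse of that the study printed. Chromosome levels were added after seeing the data. The methods call the replicates biological. P-values of the main fit measure the spread among replicates within a line and experiment, not that between experiments. All permutation P-values take single libraries as units, not experiments.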

Additional observations from a re-analysis of the deposited data

Results flagged for a closer look

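Of 160 groups of 8 libraries examined for named loci, read totals and component scores, 20 (12.5%) held a library whose gap to the next was over 0.526 of the range. For normally distributed values that limit is passed in about 1 in 20 groups, or 8. Most values here are skewed counts, some so near 0 that a single read sets the gap, so the 20 are not to be read as an excess. All 20 were the highest library of their line. PHYB wild type experiment 1 replicate 4 had 1120 normalized counts of pri-miR5200-A (next highest 558), 148 normalized counts of td-k41_contig_26147 (next highest 100), 94.7 normalized counts of contig13820 (next highest 55.9), 2.28 normalized counts of Traes_2AS_7E47A2541 (next highest 1.05), 22.8 normalized counts of td-k31_contig_79452 (next highest 12.7). PHYC wild type experiment 2 replicate 1 had 297 normalized counts of IAA-A19 (next highest 199), 3.51 normalized counts of td-k25_contig_15979 (next highest 1.09), 781 normalized counts of Traes_6BL_B51240ACF (next highest 111), 103 normalized counts of Traes_6AL_48202E971 (next highest 19.6), 3.51 normalized counts of Traes_5AS_F4FD056C2 (next highest 0). PHYC wild type experiment 1 replicate 2 had 966 normalized counts of BSH-B (next highest 546), 11440 normalized counts of Traes_1BL_B1C10EA93 (next highest 3214), 6033 normalized counts of Traes_1AS_C7E294E15 (next highest 3683), 4148 normalized counts of Traes_5BL_AA5911949 (next highest 2991). PHYB wild type experiment 2 replicate 4 had 380 normalized counts of PIL1-like-A (next highest 251), 4594 normalized counts of Traes_6AL_48202E971 (next highest 591). PHYB wild type experiment 1 replicate 3 had 0.787 normalized counts of td-k61_contig_53121 (next highest 0). PHYC wild type experiment 1 replicate 1 had 1.22 normalized counts of td-k41_contig_26147 (next highest 0). PHYC wild type experiment 2 replicate 4 had 2.84 normalized counts of td-k55_contig_84000 (next highest 1.24). PHYC wild type experiment 2 replicate 2 had 116 normalized counts of td-k31_contig_5533 (next highest 74.04).

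At 18 named loci the contrast of null mutants ran opposite to that of the wild types, both past an adjusted P of 0.01, with a tested difference (edgeR interaction term, adjusted P of 0.000257 or less). The mutants add the effect of their mutations, and its part was not tested apart from the line. Values are differences of log2 fold changes, wild types minus nulls. Among listed genes, FPF-like-B1 differed by -6.95 (-1.10 in wild types, 5.84 in nulls) and ARF-B17 differed by 1.66 (1.01 in wild types, -0.65 in nulls). ARF-B6 differed by 1.74 (1.18 in wild types, -0.56 in nulls) and CCA-B1 differed by 1.13 (0.62 in wild types, -0.51 in nulls). LHY-B differed by 2.47 (1.26 in wild types, -1.22 in nulls) and PYL4-like-A1 differed by 2.56 (1.44 in wild types, -1.12 in nulls). PPD-B1 differed by 2.03 (0.46 in wild types, -1.58 in nulls) and VRN-A1 differed by 0.99 (0.62 in wild types, -0.38 in nulls). pri-miR5200-A differed by 5.08 (1.56 in wild types, -3.52 in nulls) and PIF-B3 differed by -5.93 (-0.88 in wild types, 5.05 in nulls). PIL1-like-A differed by -1.30 (-0.67 in wild types, 0.63 in nulls). Among other loci, td-k41_contig_26147 differed by 15.14 (8.71 in wild types, -6.33 in nulls) and contig13820 differed by 12.77 (7.17 in wild types, -5.52 in nulls). Traes_2AS_7E47A2541 differed by -15.48 (-8.82 in wild types, 6.62 in nulls) and Traes_2AS_315383305 differed by -14.55 (-8.77 in wild types, 5.77 in nulls). td-k61_contig_53121 differed by -16.21 (-8.07 in wild types, 8.07 in nulls) and Traes_2BL_6E8246DF3 differed by 6.68 (6.27 in wild types, -0.41 in nulls). td-k51_contig_63989 differed by 11.70 (5.18 in wild types, -6.53 in nulls).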

How the results depend on the processing

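The count of 9842 loci differing between the lines stayed within 1.5 times under TMM factors (9792), DESeq2 (13032), library totals (11327), both other filters (9953 and 9924) and thinning to the smallest library (8718). With the replicate number as a block it was 6563, and the loci without overlap numbered 2425 in place of 2774; the numbers do not pair the samples. It was 6424 with line alone, 4524 with at least a 2-fold change, 19100 at an adjusted P of 0.05 and 115 with experiments summed. Single pairs of experiments gave 1574 (PHYB experiment 1, PHYC experiment 1), 3797 (1 and 2), 3738 (2 and 1) and 4239 (2 and 2). Under these pairs loci without overlap numbered 1559 for experiments 1 and 1 and 4226 for 2 and 2, those also 4-fold apart 1232, 1092 and 1274, and near-zero loci 171, 173 and 205, and with experiments summed 92 loci lay without overlap, all 4-fold apart. Loci without overlap of at least 2-fold numbered 1525. DESeq2 called 1930 loci between experiments of PHYB wild type and 3136 of PHYC wild type. On loci scaled to unit variance the line means lay 1.39 standard deviations apart on the second component (exact permutation P = 0.0392). The leading bin by all called loci had 25.5%.

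With single libraries left out, counts ran from 7601 to 10424 for loci differing, 2749 to 3602 without overlap, 656 to 757 also 4-fold apart, 96 to 119 near zero, 88 to 1032 between PHYB experiments, 33 to 1368 between PHYC experiments and 24754 to 26639 between the nulls. The distance between the line means ran from 8.77 to 13.6 standard deviations on the first component and from 0.125 to 0.665 on the second. Of 2386 values of the 77 named loci under all alternatives, 2166 kept direction and call, 218 lost the call and 2 turned round: ARF-B17 to -0.068 (PHYB experiment 1 against PHYC experiment 2) and TaAGL41-B to -0.074 (PHYB experiment 2 against PHYC experiment 2). The cause was not tested. Under the block 9 of the 77 lost their call, and listed genes gave 10 higher and 6 lower, flowering regulators 2 and 0, receptor-like kinases 17 and 3. With library totals the median of cytochrome P450 enzymes moved to 0.012 and of gibberellin oxidases to 0.10, against -0.16 and -0.049. All 84 chromosome medians, less that of all loci, kept their sign under 6 other settings.

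Loci that did not reach 3 reads in 2 libraries were not tested, and a 2-fold change was recovered less often than a 4-fold one in simulation. Line, run and chamber cannot be told apart.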
